A study of Caenorhabditis elegans with 24 samples.

Results

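Transcripts of the machinery that carries proteins from the endoplasmic reticulum (ER) to the cell surface were followed in Caenorhabditis elegans. They were compared between the distal tip cells (DTCs) and other cells, and no label tells whether both came from the same animals. The genes were chosen by the name of their complex or family, with earlier results of these data known. In all 37 symbols were listed for the coat complexes COPII and COPI, the Golgi tether COG, the exocyst and a group of secretory Rab GTPases, and 36 of them were matched among 46778 gene IDs. The symbol cogc-7 was matched by no ID and was not analysed here. The 36 genes comprise 8 of COPII and ER exit, 7 of COPI, 7 of COG, 8 of the exocyst and 6 Rabs, and all 36 passed the filter on low counts.

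Secretory proteins leave the ER in vesicles that the COPII coat forms, pass through the Golgi, where COPI vesicles return cargo and enzymes to earlier compartments and COG tethers vesicles that recycle Golgi enzymes, and reach the plasma membrane on carriers that the exocyst tethers. Rab GTPases mark each compartment and recruit the tethers. In hermaphrodites a DTC sits at the end of either gonad arm, migrates during larval life to lengthen it while laying down and remodelling matrix, and keeps the germline stem cells next to it dividing. In C. elegans, loss of the COG genes cogc-1 or cogc-3 is known to disturb the migration of this cell.

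RNA with poly(A) tails was sequenced from 2 cell fractions of wild-type hermaphrodites that carried a Venus label in the DTC and were grown at 20 °C. The Venus-positive fraction, labelled as DTCs, and the Venus-negative fraction, here called other cells, were each taken at late L3, early L4, late L4 and the adult stage, with 3 libraries in each of 8 groups. The labels name no mutation and no treatment in any group, RNA came from 30000 to 60000 cells per sample, and the promoter that drives Venus is not given in the sources used here. Other cells are a mixture of tissues, so a difference between fractions sets 1 cell type beside an average, and fewer cells of a type and less RNA per cell cannot be told apart.

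Total counts per library ran from 8391423 to 18045720, ribosomal RNA took 7.25% to 33.21% of them, and a member held from 8 counts (cogc-1, other cells, adult) to 12376 counts (sec-31, DTCs, late L3). The summed level of 7 DTC markers, in CPM (counts scaled to the size of a library), was 10600 to 17200 in DTCs at late L3 and 15800 to 20700 at early L4, but 7840 to 8470 at late L4 and 699 to 941 in adults, against 61.8 to 224 in all libraries of other cells. Most of the larval DTC sum was nid-1, with means of 14700 CPM at early L4 and 5200 at late L4. Over that step lag-2 (205 to 270) and mig-21 (537 to 1190) rose, while hlh-12, gon-1, unc-5 and dgn-1 fell with nid-1. In adults all 7 means were below those of late L4. The adult DTC libraries thus carried far lower levels of these markers, and they also held 3050 to 15000 CPM of 6 intestine markers against 176 to 1280 in larval DTCs and 1070 to 4570 in adult other cells. Among the intestine markers the protease gene cpr-6 took most of that sum, at 2070 to 12700 CPM in adult DTCs. Body wall muscle markers summed to 8630 to 9500 CPM in adult DTCs and 5960 to 6250 in adult other cells, whereas in larvae they were lower in DTCs at every stage (1100 to 5250 against 3670 to 13800). Coelomocyte markers, at 19.7 to 281 CPM in DTCs, were at 271 to 3290 in other cells. Among other cells, replicate 3 of late L3 stood apart from its group, at 19.2 on the first principal component against -114.4 and -107.5, and held 561 CPM of sperm markers against 5.25 in the lowest of its group. Replicate 3 of DTCs also lay apart on that component at early L4 (-51.1 against -0.3 and -0.3) and at late L4 (-10.3 against 43.4 and 39.5). By a chi-square per gene between 2 libraries, larger where they are less alike, replicate 3 also lay apart in 2 further groups. It was at 200.9 and 155.5 from the others in DTCs at late L3, which were 31.4 from each other. In other cells at late L4 it was at 167.5 and 180.5, beside 38.2. The largest values were those of replicate 1 of adult other cells, at 272.7 and 350.5, beside 106.8. Ribosomal RNA took 11.19% of its counts, against 33.21% and 32.63% in replicates 2 and 3.

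As the mean of the 4 stages, 21 of the 36 members (58.3%) were higher in DTCs and none was lower, where 30.6% of all 16887 genes tested were called, 16.3% higher and 14.3% lower. Here and below, a gene was called higher or lower at an adjusted p under 0.05 from edgeR's quasi-likelihood test, adjusted over all genes of the comparison. All 8 COPII and ER exit genes were called, as were 6 of 7 COPI genes and 5 of 6 Rabs, but only 2 of 8 exocyst genes and none of 7 COG genes. The median log2 fold change of the members was 0.49, beside -0.14 for all genes. Scaling libraries by RLE in place of TMM moved the median of all genes to -0.33 and the count to 17, yet the distance between members and all genes was 0.63 under both. With each library left out in turn the count was 15 to 23, but in 16 of those 24 fits TMM took another reference library, which shifts every fold change. With the scaling factors of all libraries kept it was 19 to 23. Without the adult stage 25 members were higher and none lower, against 16.8% of all genes higher.

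By stage, 6 members were higher in DTCs at late L3 (16.7%, all genes 6.03%), 15 at early L4 (41.7%, all genes 9.4%), 7 at late L4 (19.4%, all genes 9.19%) and 7 in adults (19.4%, all genes 8.19%). No member was called lower at any stage, where 7.33%, 1.65%, 2.61% and 5.12% of all genes were, so that 13.4%, 11%, 11.8% and 13.3% of all genes were called in all. DTC libraries lay above those of other cells without overlap for 22, 30, 13 and 8 members (all genes 21%, 21.1%, 18.3% and 17.3%). They lay below for none, none, 1 (cogc-5) and 2 (exoc-7 and exoc-8), where 15.9%, 27.9%, 18.8% and 9.24% of all genes did. At all 4 stages they lay above for sec-22, sft-4, copg-1 and rab-8 (all genes 3.04%). The members' median stood above that of all genes by 0.66, 1.13, 0.52 and 0.21 in the same order, and by 0.67, 1.12, 0.52 and 0.20 under RLE. With 1 library left out and the scaling factors kept, the lowest counts were 4, 10, 5 and 5 in the order of the stages. With factors recomputed they were 3, 7, 3 and 2, the first 3 without replicate 3 of DTCs of that stage and the last without replicate 1 of adult DTCs. For the DTC libraries that lay apart, leaving out replicate 3 gave 4 at late L3, 10 at early L4 and 7 at late L4 with factors kept. In an edgeR fit of the adult groups alone no member was called, where 2.77% of all genes were, and a fit of the early L4 groups alone called 27, all higher, where 30.7% of all genes were.

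**Figure D1:**
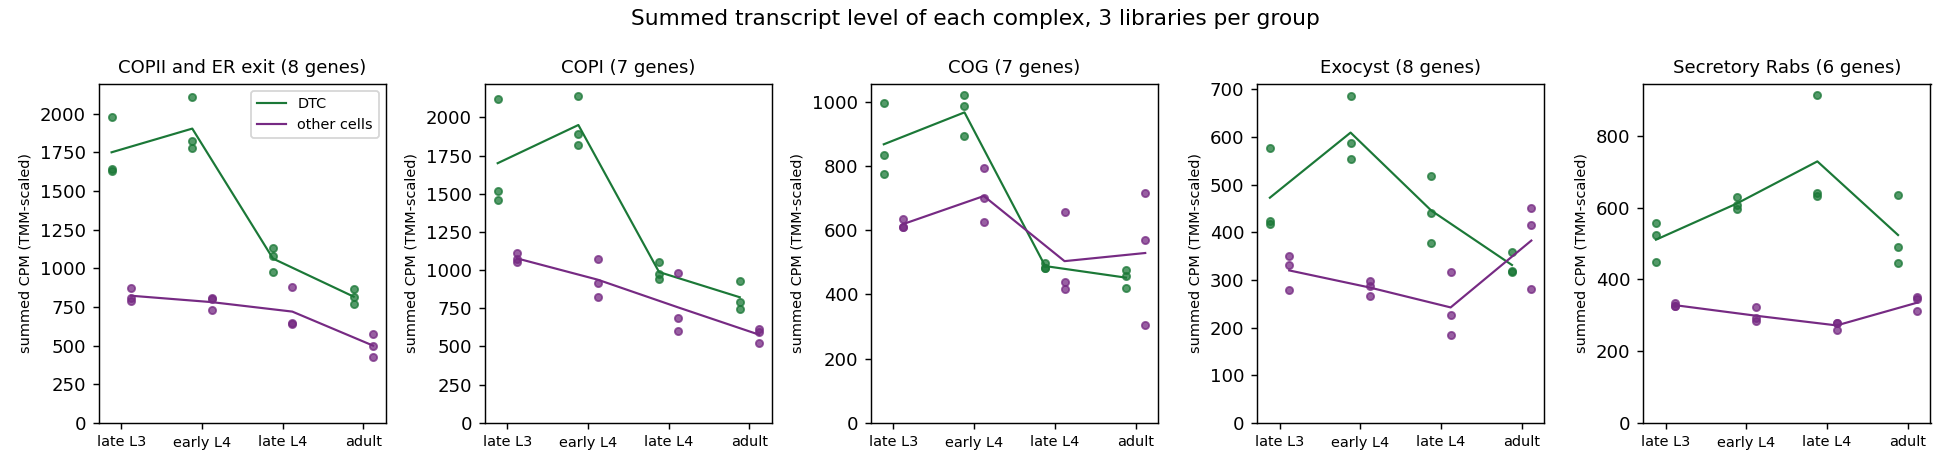
Summed CPM of the members of each complex (y axis, from 0) at the 4 stages (x axis). Points are libraries and lines join the means of the 3 libraries in DTCs (green) and other cells (purple). COPII and Rab sums of DTCs lay above those of other cells at all 4 stages, while COG and exocyst sums overlapped in adults.

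The summed COPII level in DTCs was 1750 ± 199 CPM (mean ± SD, n = 3 here and below) at late L3 and 1910 ± 181 at early L4, and then 1060 ± 76.6 at late L4 and 816 ± 49.1 in adults. In other cells it went from 823 ± 42.8 to 781 ± 44.2, 720 ± 136 and 500 ± 72.2. The ratio of DTCs to other cells was thus 2.13, 2.45, 1.47 and 1.63, and the libraries did not overlap at any stage, except at late L4 under RLE. COPI gave ratios of 1.57, 2.08, 1.31 and 1.42, with overlap at late L4. COG gave 1.40, 1.37, 0.97 and 0.854, the exocyst 1.48, 2.14, 1.84 and 0.864, and the Rabs 1.56, 2.04, 2.68 and 1.56. The 5 groups differed in when the ratio of sums was highest: early L4 for COPII, COPI and the exocyst, late L4 for the Rabs, and late L3 for COG. Under RLE the COG ratios at late L3 and early L4 were 1.14 and 1.13 with overlap. At late L4 the RLE ratio of COG was 0.832, with DTC libraries below those of other cells without overlap. The late L4 peak of the Rabs rests on rab-8, which held 403 of the 729 CPM in DTCs there. By the median log2 fold change the 6 Rabs differed most at early L4 (0.92), beside 0.58 at late L4.

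In DTCs the highest of the 4 stage means was at early L4 for 23 of 36 members, at late L3 for 8, at late L4 for 2 and in adults for 3. All 7 COPI genes and 6 of 7 COG genes peaked at early L4. In other cells 17 members peaked at late L3 and 9 at early L4, with 3 at late L4 and 7 in adults. Under RLE the count at early L4 was 25 in DTCs and 16 in other cells, so the order of late L3 and early L4 in other cells rests on the scaling.

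**Figure D2:**
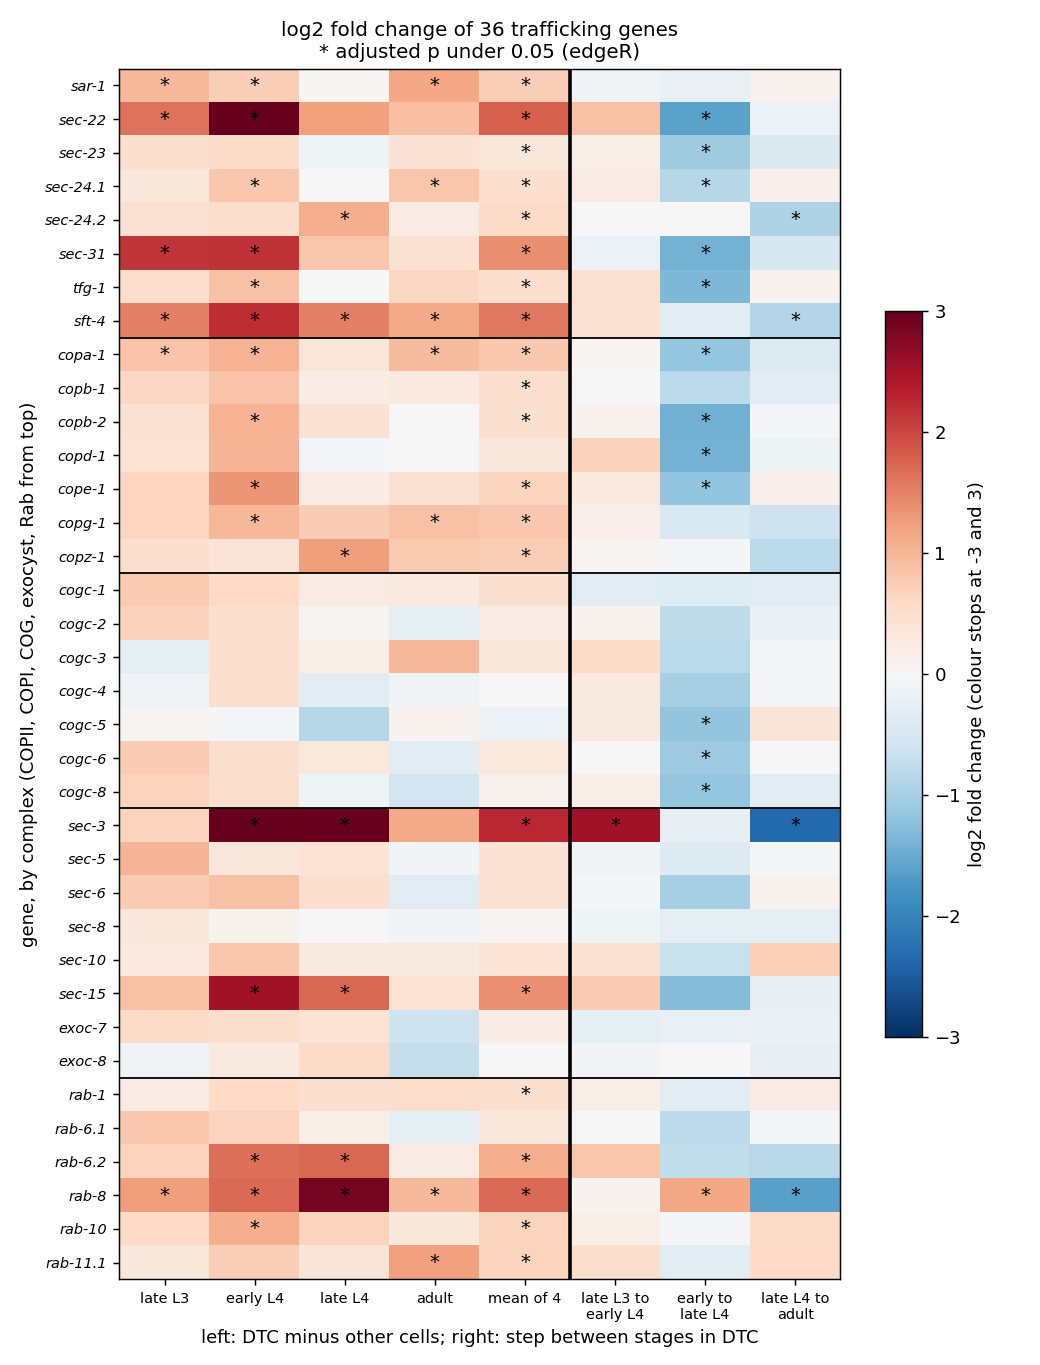
log2 fold changes of the 36 members (rows, by complex) between the fractions, stage by stage and averaged over 4 stages (left of the thick line) and for each step between stages within DTCs (right of it). Red is higher, blue is lower, the colour stops at -3 and 3, and a star marks an adjusted p under 0.05. Stars fill the COPII rows of the mean and are absent from the COG rows left of the line.

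Among COPII genes, sec-31, which encodes an outer coat subunit (chromosome IV, 11365621 to 11371792, minus strand of ce11), was 1 of the pair of COPII and ER exit genes with the highest levels per kilobase of exon in DTCs at late L3 (183 CPM per kilobase, beside 190 for sft-4). At late L3 it stood at 640, 617 and 729 CPM in DTCs and 165, 150 and 135 in other cells, and at early L4 at 555, 551 and 647 against 146, 109 and 134. The libraries of the fractions were far apart at both stages. The log2 fold change was 2.14 ± 0.31 (SE) at late L3 (adjusted p = 0.000165) and 2.17 ± 0.32 at early L4 (adjusted p = 6.97e-05), and both calls held under all alternatives and each left-out library. At late L4 sec-31 was at 269, 176 and 209 CPM in DTCs against 117, 76 and 172, which did not pass the test (0.84 ± 0.30, adjusted p = 0.0804), and in adults 151, 201 and 120 overlapped with 120, 158 and 66.9.

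Its inner-coat partner sec-23, which activates the GTPase SAR-1, differed far less. It was at 158, 209 and 206 CPM in DTCs and 120 to 169 in other cells at late L3, and at 214, 199 and 232 against 156, 140 and 145 at early L4. Its mean log2 fold change of 0.33 ± 0.11 was called (adjusted p = 0.0337) but not under RLE (0.14, adjusted p = 0.34). Within a library, the ratio of sec-31 to sec-23 in counts per kilobase needs no scaling between libraries. It was 2.52 ± 0.397, 1.95 ± 0.0798, 1.55 ± 0.446 and 1.47 ± 0.0855 across the DTC stages, and 0.812 ± 0.215, 0.633 ± 0.0646, 0.755 ± 0.121 and 1.43 ± 0.447 in other cells. The fractions did not overlap in the 3 larval stages and overlapped in adults. This pair, like the other ratios below, was chosen after the values were seen and is given without a test.

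The GTPase gene sar-1 was steady in DTCs, at 110 ± 15.2, 103 ± 13.1, 87.7 ± 2.84 and 94.3 ± 15.6 CPM. In other cells it was at 55.7 ± 5.23, 61.6 ± 12.9, 84.5 ± 19.1 and 42.0 ± 5.02 CPM. It was higher in DTCs at late L3 (0.98 ± 0.23, adjusted p = 0.00702) and in adults (1.17 ± 0.23, adjusted p = 0.00295), and at early L4 (0.74 ± 0.23, adjusted p = 0.0387), where RLE gave 0.45 (adjusted p = 0.197). At late L4 the log2 fold change was 0.05 ± 0.22. The early L4 call was also lost under DESeq2, with no filter and on leaving out any of several libraries. Adult samples carry the shift in DTC, intestine and muscle markers given above, whose part in the adult calls was not tested.

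The paralogs sec-24.1 and sec-24.2 encode the subunit that selects cargo, and of the stages only the adult and early L4 were called for sec-24.1 and only late L4 for sec-24.2. sec-24.1 was at 249, 237 and 302 CPM in DTCs and 155, 156 and 141 in other cells at early L4, with no overlap (0.81 ± 0.20, adjusted p = 0.0113). That call did not hold under RLE (0.52, adjusted p = 0.10). At late L4 it was at 146 ± 14.1 against 148 ± 32.4 CPM, with a log2 fold change of -0.02 ± 0.20. In adults sec-24.1 was at 155, 180 and 151 CPM against 88.9, 98.2 and 85.8 (0.83 ± 0.20, adjusted p = 0.011). With recomputed scaling factors this call was lost without any of 4 libraries (adjusted p up to 0.0855), and with factors kept it held. sec-24.2 instead was higher at late L4, at 148, 105 and 156 CPM against 65.7, 53.8 and 72 (1.09 ± 0.26, adjusted p = 0.00737), and it was not called at the other stages. With scaling factors kept, the call was lost without replicate 2 of other cells (0.99, adjusted p = 0.0502). With factors recomputed it was lost without replicate 3 of DTCs (0.75, adjusted p = 0.143) or of other cells (0.94, adjusted p = 0.0576). The ratio of sec-24.2 to sec-24.1 per kilobase was 0.973 ± 0.142 in DTCs and 0.464 ± 0.104 in other cells at late L4, and the fractions overlapped at the other 3 stages.

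The remaining genes of ER exit covered both ends of the range. sft-4 encodes a cargo receptor of the SURF4 family (chromosome X, 5778875 to 5780722, minus strand) and was called at every stage. It was at 223, 201 and 305 CPM in DTCs at late L3, then 336, 278 and 390 at early L4. Later it was at 247, 268 and 289 at late L4 and 169, 119 and 151 in adults. In other cells the 12 libraries lay between 52.1 and 97.1 CPM, below every DTC library. The log2 fold changes were 1.5 ± 0.22, 2.21 ± 0.22, 1.52 ± 0.22 and 1.14 ± 0.22 with adjusted p = 0.000151, 1.04e-06, 6.66e-05 and 0.00242, and the larval calls held under all alternatives and left-out libraries.

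sec-22 encodes a SNARE of vesicles between ER and Golgi (chromosome X, 1035548 to 1037066, plus strand). At early L4 it was at 36.8, 45.7 and 60.6 CPM in DTCs and 4.09, 3.68 and 5.91 in other cells, the widest separation among COPII and ER exit genes (3.38 ± 0.46, adjusted p = 3.39e-05). Its DTC libraries lay above those of other cells at all 4 stages. At late L3 the DTC libraries were spread, at 19.8, 16.3 and 41.0 CPM against 6.90, 8.71 and 9.29 (1.63 ± 0.43, adjusted p = 0.0163). Without DTC replicate 3 of that stage the log2 fold change was 0.97 (adjusted p = 0.205), or 1.12 (adjusted p = 0.134) with scaling factors kept. Without replicate 1 of other cells it was 1.51 (adjusted p = 0.0649). tfg-1, whose product organises ER exit sites, was at 223, 223 and 222 CPM in DTCs at early L4 against 120, 123 and 120. The log2 fold change there was 0.88 ± 0.25 (adjusted p = 0.0276), or 0.60 (adjusted p = 0.153) under RLE.

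**Figure D3:**
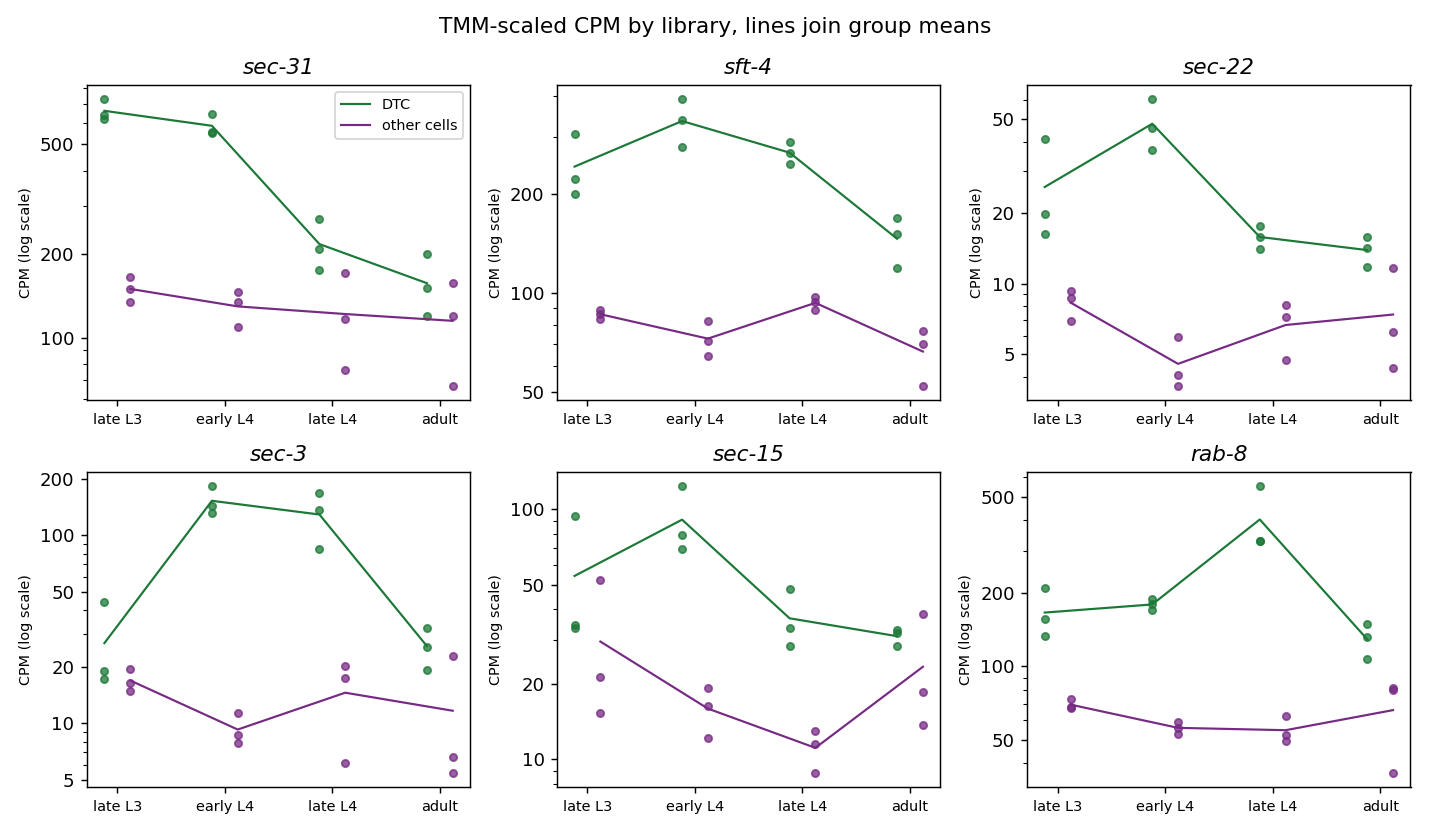
TMM-scaled CPM (y axis, log scale) of sec-31, sft-4, sec-22, sec-3, sec-15 and rab-8 at the 4 stages (x axis), with 1 point per library and lines through the means of 3 libraries in DTCs (green) and other cells (purple). Each gene has its own course in DTCs: sec-31 is highest at late L3, sec-3 at early and late L4, and rab-8 at late L4.

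In the mean of the 4 stages the median log2 fold change was 0.66 for COPI genes and 0.66 for COPII and ER exit genes. At early L4 the medians were 1.01 and 0.84. The largest differences in the mean were smaller among COPI genes. Of the 7, copa-1 (alpha subunit, 0.80 ± 0.13), copb-1 (beta, 0.50 ± 0.16), copb-2 (beta prime, 0.49 ± 0.10), cope-1 (epsilon, 0.66 ± 0.12), copg-1 (gamma, 0.82 ± 0.13) and copz-1 (zeta, 0.74 ± 0.14) were higher in the mean of the 4 stages. copd-1 (delta) was at 0.35 ± 0.18 (adjusted p = 0.158) and shares 13% of its exon length with C13B9.2 on the opposite strand. Under RLE copb-1 was no longer called (0.31, adjusted p = 0.137). The range of the 7 mean log2 fold changes, 0.35 to 0.82, was narrower than the 0.33 to 1.79 of the COPII and ER exit genes.

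The widest COPI difference at a single stage was that of cope-1 at early L4, with 496, 519 and 578 CPM in DTCs and 260, 179 and 197 in other cells (1.33 ± 0.24, adjusted p = 0.000568). The groups did not overlap, and the call held under all alternatives and left-out libraries. At the same stage copa-1, copb-2 and copg-1 were higher by 1.05 ± 0.26, 1.05 ± 0.21 and 0.99 ± 0.25, of which copa-1 and copg-1 were not called under RLE and copb-2 was not without DTC replicate 3 (0.76, adjusted p = 0.0628) unless the scaling factors were kept. copz-1 stood out in time, since it was called at late L4, when the rest were not, at 62.2, 59.3 and 60.0 CPM in DTCs against 28.5, 18.9 and 28.4 (1.26 ± 0.28, adjusted p = 0.00464). Without DTC replicate 3 its adjusted p was 0.054 (1.03) with recomputed scaling factors, and with factors kept the call held for each left-out library. In DTCs copz-1 kept 58.7 ± 8.34, 62 ± 10.3 and 60.5 ± 1.52 CPM through the 3 larval stages.

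No COG gene was called by edgeR between the fractions at any stage or in the mean; unadjusted, p was under 0.05 for 1 of 7 in the mean, 2 at late L3, none at early L4 and 1 at either later stage. In the mean of the 3 larval stages cogc-6 was higher in DTCs (0.52 ± 0.15, adjusted p = 0.0132), and in adults DESeq2 called cogc-3 higher (1.08 ± 0.39, adjusted p = 0.0283). Over all 4 stages the mean log2 fold changes ran from -0.17 ± 0.16 (cogc-5) to 0.48 ± 0.32 (cogc-1), around 0.24 as the median of the 7. At early L4 cogc-2 was at 259, 254 and 224 CPM in DTCs and 197, 172 and 163 in other cells, and cogc-8 at 258 ± 22.4 against 178 ± 41.1. These libraries did not overlap, and the same was true of 5 of 7 COG genes at that stage, but the log2 fold changes of 0.47 ± 0.34 (adjusted p = 0.401) and 0.53 ± 0.31 (adjusted p = 0.309) did not pass the test. cogc-3, one of the pair needed for DTC migration, was at 67.7, 68 and 61.7 CPM in DTCs and 46.6, 54.6 and 37.7 in other cells at early L4 (0.51 ± 0.39). The other, cogc-1, had the lowest level of all members, with 12.4 ± 1.03 CPM in DTCs at late L3 as its highest group mean. The SEs of 0.31 to 0.39 on the log2 scale for these 3 genes come from 1 spread fitted over all 8 groups. Against them, differences of that size did not pass, while a fit of the early L4 groups alone called more members, as given above. At late L4 the DTC libraries of cogc-5 lay below those of other cells, at 23.9, 33.7 and 34.7 CPM against 54.2, 43.1 and 69.5. The log2 fold change of cogc-5 there was -0.85 ± 0.33 (adjusted p = 0.107), and it was called lower under RLE (-1.08, adjusted p = 0.0365) and by DESeq2 (-1.08, adjusted p = 0.00781).

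The exocyst divided into 2 genes with large differences and 6 with small ones. sec-3 encodes the subunit that in yeast and mammals binds membrane lipids at sites of exocytosis (chromosome X, 3095428 to 3099852, minus strand). In DTCs it was at 18.9, 17.1 and 44.1 CPM at late L3 and 132, 143 and 183 at early L4. It was at 136, 167 and 84.2 at late L4 and 19.3, 25.6 and 32.3 in adults. In other cells it was at 19.4, 16.4 and 14.9, then 8.62, 7.87 and 11.3, then 17.4, 6.14 and 20.1, and in adults 22.9, 5.47 and 6.61. The fractions overlapped at late L3 and in adults and were far apart at both L4 stages.

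Against other cells sec-3 was higher at early L4 (4.04 ± 0.56, adjusted p = 4.2e-05) and late L4 (3.15 ± 0.54, adjusted p = 0.000391), the largest log2 fold change of any member at each of those stages. Both calls held under all alternatives and left-out libraries. Within DTCs sec-3 rose from late L3 to early L4 by 2.52 ± 0.52 (adjusted p = 0.0233) and fell by 2.33 on the log2 scale from late L4 to adult (SE 0.52, adjusted p = 0.0057). It was the sole member called by edgeR in the first step, in which 2% of all genes were (1.79% higher and 0.213% lower). DESeq2 also called sec-22 (1.08, adjusted p = 0.0493), sft-4 (0.66, adjusted p = 0.0135) and rab-11.1 (0.73, adjusted p = 0.0294) higher there. Its share of all genes is not given here. The edgeR call of sec-3 was lost without replicate 1 or 2 of DTCs at late L3 (2.32 and 2.28) or at early L4 (2.62 and 2.57), with an adjusted p of 0.155 at most. The change from late L3 to early L4 differed between DTCs and other cells by 3.38 ± 0.72 (adjusted p = 0.0392), a call that was lost with a replicate block. That difference was called for 0.497% of all genes (0.438% higher and 0.0592% lower). In other cells no member was called in that step by edgeR or DESeq2, and 1 had an unadjusted p under 0.05, where edgeR called 0.361% of all genes.

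sec-15, which encodes the subunit that binds Rab GTPases in yeast and flies (chromosome X, 8831737 to 8835715, minus strand), was at 69.7, 79.2 and 124 CPM in DTCs at early L4 and 16.4, 19.3 and 12.2 in other cells. At late L4 it was at 33.6, 47.9 and 28.5 against 13, 8.86 and 11.5. There was no overlap at either stage, and sec-15 was higher by 2.51 ± 0.50 (adjusted p = 0.00157) and 1.72 ± 0.49 (adjusted p = 0.0235). The second call was lost on leaving out any of 10 libraries, with values no lower than 1.49, or any of 4 with the scaling factors kept. At late L3 replicate 3 of DTCs, at 94.5 CPM, lay far above 33.6 and 34.4, and the 3 overlapped with the 52, 21.4 and 15.4 of other cells.

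The other 6 exocyst genes, sec-5, sec-6, sec-8, sec-10, exoc-7 and exoc-8, were not called between the fractions at any stage or in the mean of 4 stages. In the mean of the 3 larval stages sec-5 (0.60, adjusted p = 0.0433), sec-6 (0.71, adjusted p = 0.00982) and exoc-7 (0.51, adjusted p = 0.0116) were higher in DTCs. Their mean log2 fold changes lay between 0.01 ± 0.16 (exoc-8) and 0.45 ± 0.17 (sec-6). In adults the direction was the opposite for exoc-7 and exoc-8, whose DTC libraries lay below those of other cells: exoc-7 was at 85.9, 90.1 and 77.6 CPM against 146, 139 and 105, and exoc-8 at 44.8, 30.7 and 28.8 against 50.7, 69.8 and 51.5. These log2 fold changes of -0.62 ± 0.26 (adjusted p = 0.113) and -0.72 ± 0.32 (adjusted p = 0.136) did not pass the test. The level of sec-3 per kilobase, divided by the mean of the 7 other exocyst genes in the same library, was 0.34 ± 0.132, 1.99 ± 0.165, 2.51 ± 1.02 and 0.496 ± 0.114 across the DTC stages. In other cells it was 0.326 ± 0.02, 0.202 ± 0.0515, 0.366 ± 0.151 and 0.175 ± 0.121. sec-3 was thus a low member of the complex in other cells and in DTCs of late L3 and adults, and above the average of the others in DTCs of both L4 stages.

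**Figure D4:**
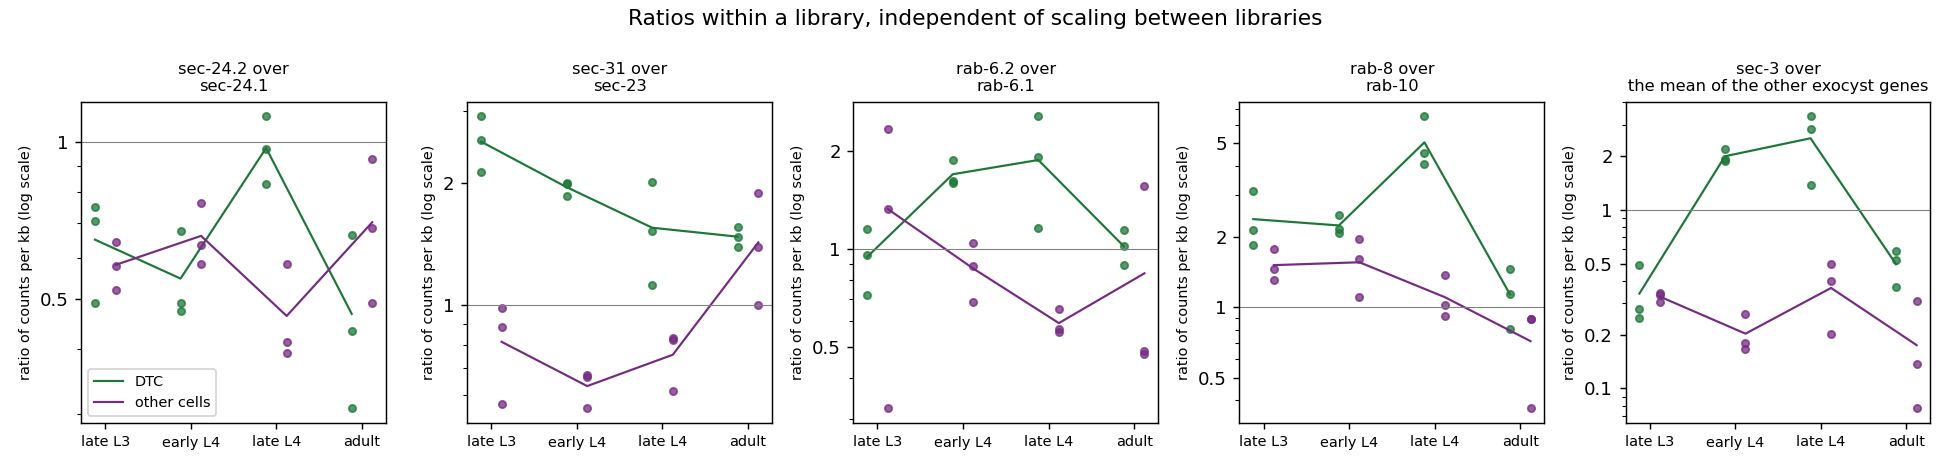
Ratios of counts per kilobase between paralogs or partners within each library (y axis, log scale, a grey line at 1) at the 4 stages (x axis), with 1 point per library and lines through means of 3 libraries in DTCs (green) and other cells (purple). The rab-8 to rab-10 ratio of DTCs peaked at late L4 (5.05) and the sec-3 ratio was above 1 only in DTCs at early and late L4.

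Among the Rabs, rab-8, whose product drives carriers from the Golgi to the plasma membrane (chromosome I, 3682890 to 3684086, minus strand), was higher in DTCs at every stage. It was at 157, 133 and 210 CPM in DTCs at late L3, then 170, 181 and 189 at early L4. Later it was at 327, 328 and 553 at late L4 and 149, 132 and 107 in adults. The 12 libraries of other cells lay between 36.6 and 81.9 CPM, below all DTC libraries. The log2 fold changes were 1.26 ± 0.28, 1.69 ± 0.28, 2.88 ± 0.30 and 0.97 ± 0.28, with adjusted p = 0.00554, 0.000308, 1.93e-06 and 0.027. The late L3 call was lost without DTC replicate 3 (0.91, adjusted p = 0.0814) only with recomputed scaling factors. The adult call was lost without any of 10 libraries (adjusted p up to 0.178), or any of 3 with factors kept, and both L4 calls held throughout.

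Within DTCs rab-8 was the sole member to rise from early to late L4 (1.16 ± 0.28, adjusted p = 0.0166), and it then fell by 1.64 on the log2 scale to adults (SE 0.28, adjusted p = 0.000765). The rise lost its call without replicate 3 of late L4 (0.86, adjusted p = 0.105) or any replicate of early L4. The late L4 to adult change differed from that of other cells by -1.91 ± 0.39 (adjusted p = 0.00828). rab-10, a close relative with roles in basolateral traffic, followed another course, at 47.3 ± 2.36, 54 ± 5.02, 52.7 ± 4.36 and 78.6 ± 15.8 CPM in DTCs. It was higher than in other cells at early L4 (54.7, 48.7 and 58.7 CPM against 20.1, 32.0 and 23.3, 1.1 ± 0.23, adjusted p = 0.00246). Without replicate 3 of early L4 the adjusted p was 0.0797 (DTCs, 0.81) or 0.102 (other cells, 0.76) with recomputed scaling factors, and the call held with factors kept. Per kilobase the ratio of rab-8 to rab-10 was 2.37 ± 0.683, 2.23 ± 0.215, 5.05 ± 1.29 and 1.13 ± 0.323 in DTCs and 1.51 ± 0.236, 1.55 ± 0.433, 1.1 ± 0.241 and 0.716 ± 0.30 in other cells, with overlap in adults only.

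The Golgi Rab paralogs differed from each other. rab-6.2 was at 68.9, 73.0 and 81.7 CPM in DTCs and 21, 23.2 and 26.6 in other cells at early L4, and at 37.5, 41.1 and 55.2 against 13.5 ± 3.57 at late L4. The groups did not overlap at these stages, and rab-6.2 was higher by 1.66 ± 0.39 (adjusted p = 0.00682) and 1.72 ± 0.39 (adjusted p = 0.00525). Leaving out replicate 3 of either fraction ended the call at early L4 (1.35 and 1.46) and at late L4 (1.30 and 1.39), with adjusted p up to 0.0789, when scaling factors were recomputed, and neither call was lost with factors kept. rab-6.1 was not called at any stage or in the mean of 4 stages (0.34 ± 0.18), but it was in the mean of the 3 larval stages (0.55 ± 0.21, adjusted p = 0.0488). The ratio of rab-6.2 to rab-6.1 per kilobase was 1.7 ± 0.154 in DTCs and 0.867 ± 0.177 in other cells at early L4, and 1.87 ± 0.693 and 0.59 ± 0.053 at late L4, while the fractions overlapped at late L3 and in adults.

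rab-1, which acts between ER and Golgi, had the smallest called mean among the Rabs (0.47 ± 0.11, adjusted p = 0.00221, but 0.052 under RLE), with 150 ± 19, 171 ± 3.68, 134 ± 9.54 and 159 ± 41.4 CPM in DTCs. rab-11.1, a marker of recycling endosomes, was called in adults, at 150, 85.7 and 91.7 CPM in DTCs against 45.6, 43.9 and 50.7 (1.22 ± 0.26, adjusted p = 0.0051). Without DTC replicate 1, the highest of the 3, it was 0.79 (adjusted p = 0.083) with recomputed scaling factors, and the call held with factors kept. It is 1 of 2 Rabs highest in adults among DTC stages, with rab-10.

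The step from early to late L4 was the one in which most members changed within DTCs: 12 fell and rab-8 rose (33.3% and 2.78% of 36), where 5.57% of all genes were called, of which 1.77% fell and 3.8% rose. The median log2 change was -0.78 for the members and 0.00 for all genes, and -0.62 and 0.12 under RLE. The 12 were 5 COPII and ER exit genes (sec-22, sec-23, sec-24.1, sec-31 and tfg-1), 4 COPI genes (copa-1, copb-2, copd-1 and cope-1) and 3 COG genes (cogc-5, cogc-6 and cogc-8), with no exocyst gene and no Rab. Without DTC replicate 2 of late L4 the count of called members was 5, with scaling factors kept or recomputed, and with no filter on low counts 6 fell and none rose.

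Among the genes that fell, tfg-1 went from 223, 223 and 222 to 107, 82.1 and 74.3 CPM (-1.34 ± 0.26, adjusted p = 0.00282). copb-2 went from 124, 130 and 143 to 50.2, 45 and 51.2 CPM (-1.44 ± 0.21, adjusted p = 0.000221) and cope-1 from 496, 519 and 578 to 210, 246 and 246 (-1.18 ± 0.24, adjusted p = 0.00393). In each of these the late L4 libraries lay below all early L4 libraries, and the calls of all 3 held under all alternatives and left-out libraries. The widest change, that of sec-22 (-1.60 ± 0.43, adjusted p = 0.0319), was not called under RLE (-1.43, adjusted p = 0.0567), nor were those of cogc-5 and cogc-8. sec-31 fell by 1.42 on the log2 scale (SE 0.31, adjusted p = 0.0076), or by 1.24 (adjusted p = 0.0612) without DTC replicate 2 of late L4, and by 1.29 (adjusted p = 0.0544) without it when scaling factors were kept. The smallest changes, none of them called, were those of sec-24.2 (0.00 ± 0.26), copz-1 (-0.04 ± 0.28), exoc-8 (0.01 ± 0.31) and rab-10 (-0.03 ± 0.23).

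**Figure D5:**
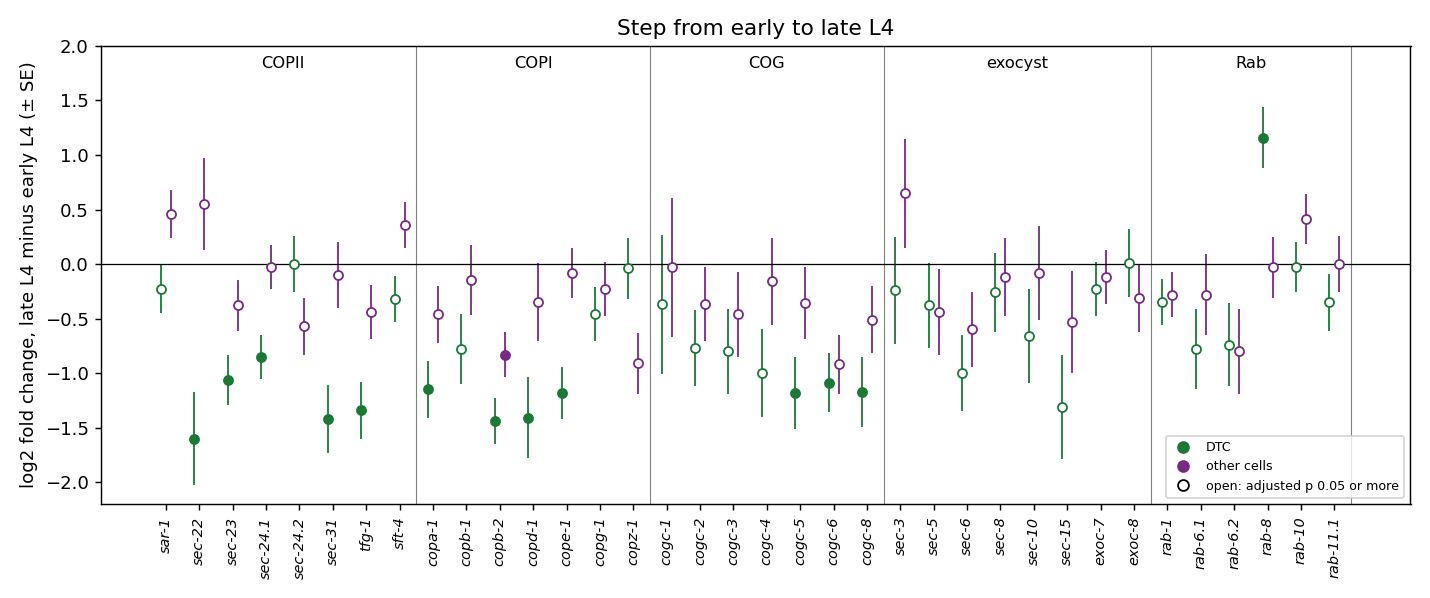
log2 fold change from early to late L4 (y axis, points with ± 1 SE) for each of the 36 members (x axis, by complex) in DTCs (green) and in other cells (purple). Filled points have an adjusted p under 0.05. The DTC points of COPII, COPI and COG genes lie mostly lower than those of other cells, while rab-8 is the sole filled point above 0.

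In other cells the same step called 1 member, copb-2 (-0.83 ± 0.21, adjusted p = 0.0395), where 2.09% of all genes were called (1.85% higher and 0.243% lower), and the median of the members was -0.28. The difference between the DTC and other-cell steps was called for none of the 36 by edgeR, where 0.379% of all genes were (0.166% higher and 0.213% lower), and its median was -0.54 against 0.01 for all genes. For 11 members the unadjusted p was under 0.05, a share that was not computed over all genes. DESeq2 called sec-22 (-2.09 ± 0.56, adjusted p = 0.015) and rab-8 (1.25 ± 0.37, adjusted p = 0.0436). The widest differences were those of sec-22 (-2.14 ± 0.60, adjusted p = 0.18), sec-31 (-1.33 ± 0.43, adjusted p = 0.289) and rab-8 (1.2 ± 0.39, adjusted p = 0.302). By edgeR a fall particular to DTCs was therefore not shown for any single member. DESeq2 called the difference lower for sec-22, but its share of all genes called is not given here.

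From late L4 to adult, 4 members fell in DTCs and none rose, where 12.8% of all genes were called (6.12% fell and 6.68% rose). They were sec-3 and rab-8, as above, sec-24.2 (-0.92 ± 0.26, adjusted p = 0.024) and sft-4 (-0.87 ± 0.21, adjusted p = 0.0104). With scaling factors kept, sec-24.2 was lost without any of 4 libraries and sft-4 without replicate 2 of adult DTCs (-0.74, adjusted p = 0.0532). In other cells sar-1 (-1.01 ± 0.23), sec-23 (-1.0 ± 0.23), sec-24.1 (-0.70 ± 0.20) and copa-1 (-0.97 ± 0.26) fell and rab-10 rose (0.90 ± 0.23), where 6.71% of all genes were called (4.65% fell and 2.05% rose). The change of rab-10 was 0.59 (adjusted p = 0.117) under RLE. With scaling factors kept, none of the 5 was called without replicate 3 of adult other cells (adjusted p 0.0576 to 0.106), and sec-24.1 was lost without any of 20 libraries. The step of sar-1 differed between the fractions by 1.11 ± 0.32 (adjusted p = 0.0407), and that of rab-8 was the other called difference among members, where 7.14% of all genes were called (3.34% higher and 3.8% lower). The summed DTC markers fell between these stages from 7840 to 8470 CPM to 699 to 941 CPM in the same libraries, and their part in these changes was not tested.

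Of the 118 other genes listed for the secretory pathway, 105 were tested. As the mean of the 4 stages 45 were higher and 4 lower (42.9% and 3.81%), where 16.3% and 14.3% of all genes were, and the median was 0.44 beside -0.14. By role, 5 of 11 genes of ER entry, 10 of 20 of ER exit and cargo receptors, 6 of 17 tethers, 14 of 32 SNAREs and their partners, 2 of 6 adaptors and 8 of 19 other Rabs and regulators were higher. At early L4 24 were higher and 2 lower, where 9.4% and 1.65% of all genes were, and the median was 0.65 beside -0.35. The step from early to late L4 in DTCs lowered 15 of them and raised 4, where 1.77% of all genes fell and 3.8% rose, and 7 of 11 ER entry genes were among the 15.

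The genes with the largest called differences in the mean were the p24 family gene tmed-13 (4.02 ± 0.70), the SNARE regulator vps-45 (2.27 ± 0.18), the syntaxin genes syx-2 (1.99 ± 0.42) and unc-64 (1.7 ± 0.21) and the Rab27 gene aex-6 (1.75 ± 0.39). Of these vps-45 was at 352, 350 and 371 CPM in DTCs at early L4 against 38.9, 19.5 and 26.1 in other cells. tmed-13 was at 67.2, 61.4 and 120 CPM in DTCs at late L4 against 1.27, 0.00 and 2.29. unc-64 is best known as the syntaxin of nerve terminals, and it stands in the neuron marker list, whose sum was 153 to 364 CPM in larval DTCs and 95.6 to 434 in larval other cells. At early L4 that sum, which includes unc-64 itself, was 260 to 316 CPM in DTCs and 193 to 249 in other cells. The list's means were split: snt-1 (71.7 against 7.14), snb-1 and rab-3 were also higher in DTCs, and egl-3 and egl-21 were lower. The part of the list in the difference of unc-64 was not tested. At early L4 the largest were vps-45 (3.67 ± 0.38), aex-6 (2.62 ± 0.80), unc-64 (2.39 ± 0.43) and the cargo receptor genes ergi-3 (2.09 ± 0.48) and ile-2 (1.94 ± 0.33), of which aex-6 was not called under RLE (2.34, adjusted p = 0.0676).

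Lower in the mean were the synaptobrevin genes snb-6 and snb-7, the SNARE gene memb-2 (-0.77 ± 0.23) and the Rab11 regulator gene rei-1 (-0.59 ± 0.16). snb-6 was at 14.1, 8.57 and 7.59 CPM in other cells and 2.80, 3.54 and 0.626 in DTCs at early L4. It had no counts in DTCs at late L3, and snb-7 had none in adult DTCs, so their fitted values are no bounds and are not given. The calls of snb-6, snb-7 and memb-2 were lost without other cells late L3 replicate 3, a library that stood apart from its group. At early L4 the adaptor gene apm-1 was lower (-1.67 ± 0.50), at 14.7, 13.1 and 10.2 CPM in DTCs against 38.3, 40.5 and 41.8, as was rei-1 (-1.30 ± 0.33), at 12.7, 17.8 and 15.3 against 36.4, 37.7 and 38.7.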

How the data were processed

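The deposited values were raw read counts per gene for 24 libraries. Per the submitters' processing notes, the authors used FastQC, cutadapt, Bowtie2 and HTSeq with build ce11; tool versions and the strand setting were not found in the labels or headers. All 24 sample columns were used. Positions and exon lengths came from the WBcel235 annotation, the assembly of ce11. Of the 46778 IDs, 43818 had a symbol. Without a known strand setting, reads of overlapping genes on opposite strands cannot be told apart (11 members, 13% of exon length at most), and cogc-4 shares 17% of its exons with Y51H7C.41 on its own strand.

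From these counts, genes were filtered with filterByExpr in edgeR 4.0.16 (R 4.3.3), scaled by TMM and fitted in 1 quasi-likelihood model with 8 group means (16887 genes, common biological coefficient of variation 0.835). P-values were adjusted by Benjamini-Hochberg over all genes of a comparison and called under 0.05. Unadjusted p-values were counted for the members only, so those counts have no share of all genes beside them. Standard errors were the fold change over the root of the F statistic. CPM values are TMM-scaled, and a change is a change in share of RNA. The 14 comparisons share libraries, so DTC and other-cell groups recur in several of them. The fit was tested on simulated data with changes planted in DTCs at early L4. It called 1.98% of 101 genes changed 2-fold, 33.3% of 99 changed 4-fold and 0 unchanged genes. Most planted changes were thus missed there, so a gene that was not called may still differ. Only 200 genes were changed in the simulation, whereas 11% of all genes were called in the data at early L4. Its shares are therefore no estimate of how often changes of the members were missed. Alternatives were RLE scaling, no filter, DESeq2 1.42.0, a replicate block, the compared groups alone and each library left out; the larval mean and left-out libraries with the TMM factors of all 24 kept were added after seeing the data.

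The members and lists were chosen with earlier results of these data known. Genes outside the members were named as up to 5 per direction of the largest called changes in the mean and at early L4. No label tells whether replicates were grown separately, so the spread behind each p-value is that between these samples and may be technical. The spread within a group (root mean square log2 deviation) ran from 0.805 (other cells, early L4) to 1.55 (other cells, adult), while the fit uses 1 spread for all. No 2 libraries agreed within sampling noise.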

Additional observations from a re-analysis of the deposited data

Results flagged for a closer look

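Among the members, 3 differences between the DTC step and the step of other cells passed edgeR's test over all genes. sec-3 changed from late L3 to early L4 by 3.38 ± 0.72 more on the log2 scale in DTCs (adjusted p = 0.0392), with DTC libraries going from 18.9, 17.1 and 44.1 to 132, 143 and 183 CPM and other cells from 19.4, 16.4 and 14.9 to 8.62, 7.87 and 11.3. From late L4 to adult, sar-1 differed by 1.11 ± 0.32 (adjusted p = 0.0407): it was at 86.5, 85.6 and 90.9 and then 104, 76.3 and 103 CPM in DTCs, and at 62.8, 98.9 and 91.6 and then 44.3, 45.5 and 36.3 in other cells. rab-8 differed over that step by -1.91 ± 0.39 (adjusted p = 0.00828). The call of sec-3 was lost on leaving out any of 17 libraries and that of sar-1 on leaving out any of 13, while that of rab-8 held for each left-out library. With the scaling factors of all libraries kept, the calls were lost without any of 14 libraries for sec-3 and any of 17 for sar-1, and that of rab-8 again held.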

How the results depend on the processing

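Of 83 called results for single members, 31 held under the alternatives and left-out libraries with recomputed scaling, 52 were lost under at least 1 and none reversed. With no filter on low counts the number of members called was 3 in place of 6 at late L3, 8 of 15 at early L4, 3 of 7 in adults, 6 of 13 for the DTC step from early to late L4, 2 of 4 for the DTC step to adult, 0 of 1 and 0 of 5 for the last 2 steps of other cells, and 1 of 2 for the difference of steps to adult. DESeq2 called 11 in adults, 4, 13 and 7 in the 3 DTC steps, 3 and 10 in the last 2 steps of other cells, and 2, 2 and 6 for the differences of steps. Fitting the compared groups alone gave 27 at early L4, 18 for the DTC step from early to late L4 and 0 in adults, 0 for both late steps of other cells and 0 for the difference of steps to adult. RLE gave 10 at early L4 and 0 for other cells from early to late L4. The share of all genes called moved with the setting too. In the mean of 4 stages the main fit called 21 members, RLE 17, no filter 18 and DESeq2 19. Of all genes they called 30.6%, 33.3%, 16% and 40.7% in that order. With no filter 7.71% of all genes were called at late L3, where the main fit called 13.4%. The counts above are therefore not read as changes of the members alone.

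Leaving out 1 library gave 15 to 23 members in the mean of 4 stages, 3 to 6 at late L3, 7 to 15 at early L4, 3 to 8 at late L4 and 2 to 7 in adults. It gave 0 to 1, 5 to 15 and 3 to 6 in the DTC steps, 0 throughout, 0 to 2 and 2 to 6 in the steps of other cells, and 0 to 1, 0 throughout and 1 to 3 for the differences of steps. In 16 of these 24 fits TMM took another reference library. An alternative chosen after seeing the data kept the TMM factors of all 24 libraries: the counts were then 19 to 23, 4 to 7, 10 to 16, 5 to 9 and 5 to 9 in the same order, 0 to 1, 5 to 14 and 3 to 5 in the DTC steps, 0 throughout, 0 to 1 and 0 to 7 in those of other cells, and 0 to 1, 0 throughout and 1 to 3 for the differences. The 0 for other cells from late L4 to adult was without replicate 3 of adult. The cause of the remaining losses was not tested. Of the 5 calls for other cells from late L4 to adult, 2 were left without replicate 2 of late L4 with factors recomputed.

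The 84 correlations of same-numbered libraries across groups ran from -0.261 to 0.326 with a median of -0.009, and 17 were over 0.1. The highest were between replicates 3: 0.326 (other cells, late L3 and late L4), 0.28 (DTCs, early and late L4) and 0.272 (DTCs, late L3 and late L4). The lowest was also between replicates 3 (DTCs of early L4 and other cells of late L3). An effect shared by replicate 3 of only some groups was not tested. All 3 pairs of DTCs and other cells were over 0.1 at late L3 (0.16, 0.115 and 0.248), where the block called the same number, 6, and at no other stage, so the numbers were not taken to pair the samples of the series. With a replicate block 21 members were called in the mean, 0 for the difference of steps from late L3 to early L4 (the call of sec-3) and 1 for that to adult (the call of sar-1). The block also ended the calls of sar-1 at early L4, cogc-5 in the DTC step from early to late L4 and sec-24.1 in other cells from late L4 to adult, and, outside the members, that of snb-7 in the mean. Total counts of 8391423 to 18045720 leave the lowest member, cogc-1, with as few as 8 counts in a library.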

Other observations

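The 5 members on chromosome X, sec-22, sft-4, sec-3, sec-15 and rab-6.2, had a median log2 fold change of 1.59 in the mean of the 4 stages, and the 31 members on autosomes one of 0.47. All 5 were called higher, as were 16 of the 31. This split was seen after the values were known and is given without a test. Over all genes tested, 29.1% of 2385 X-linked genes and 14.2% of 14421 autosomal genes were higher in the mean, with medians of 0.23 and -0.17. At early L4 all 5 X-linked members and 10 of 31 autosomal members were higher (medians 2.51 and 0.67), beside 19.8% and 7.7% of all genes. In adults 1 of 5 and 6 of 31 were higher, beside 14.5% and 7.16% of all genes. The summed germline markers were at 1620 to 1900 CPM in DTCs against 914 to 1410 at late L3, 1070 to 1400 against 1170 to 1500 at early L4, 508 to 845 against 766 to 958 at late L4 and 238 to 417 against 733 to 1380 in adults. At late L3 most of the sum was glh-1 (mean 1110 against 707) and pgl-1 (373 against 95.3). The list was split at that stage: glh-4, nos-2, deps-1 and gld-1 were also higher in DTCs, and pgl-3, htp-3, him-3 and syp-1 were lower. Sperm markers summed at early L4 to 78.9 to 343 CPM in DTCs against 885 to 1470. The part of either list in the split was not tested.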
